A study of Mus musculus with 2 samples.

Results

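Imprinted genes are genes for which usually only the copy from the mother or only the copy from the father is transcribed. The set described here was a list of 41 such genes, fixed by symbol and matched by Ensembl identifier, of 43346 genes in the deposited gene tables. All 41 were found in the tables, with 246 of 103639 listed transcripts. They lie in 18 clusters on 10 chromosomes, 9 of the clusters with 1 listed gene, and 35 encode protein. By textbook labels, 23 are expressed from the paternal copy and 14 from the maternal copy. The other 4 (Blcap, Gnas, Inpp5f and Grb10) are expressed from either copy depending on the transcript. These labels are general and need not hold in every cell type of forebrain, and the shares and figure colours below follow them. The parental copy itself was not measured: the values below are totals over both copies.

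RNA came from the whole forebrain of newborn mice (postnatal day 0) of the strain B6NCrl, with no genotype change or treatment named. There was 1 group of 2 libraries, 1 from the forebrain of pup 1 and 1 from that of pup 3, each made by a Smart-seq protocol from 13 pg of RNA longer than 200 nt, the amount held by about 1 cell. The series is catalogued as single-cell RNA sequencing, but no cell was isolated. The labels give both libraries the same donor identifier and record no sex. With 1 library per pup no test between pups exists, so differences are described with no p-value, and a difference between pups cannot be told apart from chance loss of molecules at this input. Values are TPM, transcript abundances scaled by length and to the same total in each library, and "reads" are the deposited expected counts. Where 2 values stand together with no pup named, the first is pup 1 and the second pup 3. Positions are on mm10 (GRCm38).

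Imprinted clusters are set by stretches of DNA that carry methylation on 1 parental copy only, placed in the germ line and kept after fertilisation by factors such as ZFP57, TRIM28 and DNMT1. Within a cluster, coding genes and long non-coding RNAs are often expressed from opposite copies, and several genes switch copy with the promoter used. In brain, imprinted genes are known for roles in growth control, neuron differentiation, feeding and maternal care, and loss of the human counterparts of the Snrpn to Ube3a cluster causes Prader-Willi and Angelman syndromes.

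Sequences are shown for the annotated starts on which the results below turn. They are the 250 bases before the start, 5′ to 3′ on the strand of the gene, from RefSeq on GRCm38.p6. The first 3 have each CG dinucleotide, the site of methylation, in capitals. They precede the start used in pup 1 and the start used in pup 3 for Grb10, and the outermost start of Gnas, which was used in pup 3.
Grb10, start used in pup 1, chr11:12037421-12037670, minus strand: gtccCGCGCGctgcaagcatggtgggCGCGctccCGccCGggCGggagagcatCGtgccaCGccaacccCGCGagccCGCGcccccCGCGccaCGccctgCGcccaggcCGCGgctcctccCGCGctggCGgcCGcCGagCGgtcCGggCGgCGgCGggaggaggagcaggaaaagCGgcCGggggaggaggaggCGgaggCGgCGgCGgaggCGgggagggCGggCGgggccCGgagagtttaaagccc
Grb10, start used in pup 3, chr11:12027972-12028221, minus strand: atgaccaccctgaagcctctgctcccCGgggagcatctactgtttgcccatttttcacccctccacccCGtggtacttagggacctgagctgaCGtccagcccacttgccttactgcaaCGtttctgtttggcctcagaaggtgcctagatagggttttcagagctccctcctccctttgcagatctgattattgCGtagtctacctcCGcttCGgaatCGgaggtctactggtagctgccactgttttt
Gnas, outermost start, chr2:174284070-174284319, plus strand: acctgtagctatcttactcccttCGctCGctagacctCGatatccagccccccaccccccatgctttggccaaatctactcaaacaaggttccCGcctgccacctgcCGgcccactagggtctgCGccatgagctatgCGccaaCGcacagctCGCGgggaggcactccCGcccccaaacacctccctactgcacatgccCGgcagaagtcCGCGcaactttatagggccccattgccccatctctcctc
The first Grb10 window held 40 CG dinucleotides, the second 8 and the Gnas window 14. Across 56 windows of 34 of the imprinted genes the median was 11.5, with a range of 0 to 40, against a median of 6 over 32851 windows of 27025 genes. The next 2 have in capitals each TGCCGC, the hexamer that ZFP57 binds when it is methylated, or its reverse complement GCGGCA.
Mest, start used in both pups, chr6:30737800-30738049, plus strand: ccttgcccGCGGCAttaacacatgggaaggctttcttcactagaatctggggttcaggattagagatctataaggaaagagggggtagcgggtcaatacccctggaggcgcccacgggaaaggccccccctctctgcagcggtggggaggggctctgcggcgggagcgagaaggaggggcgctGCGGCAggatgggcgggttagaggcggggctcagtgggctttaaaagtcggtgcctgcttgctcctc
Meg3, first start, chr12:109540746-109540995, plus strand: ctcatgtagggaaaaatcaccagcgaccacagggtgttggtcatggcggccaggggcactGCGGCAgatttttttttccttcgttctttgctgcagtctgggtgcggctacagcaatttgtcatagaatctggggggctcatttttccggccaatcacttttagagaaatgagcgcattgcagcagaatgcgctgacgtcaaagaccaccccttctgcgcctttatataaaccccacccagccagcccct
TGCCGC or GCGGCA occurred 2 times in the Mest window and 1 time in the Meg3 window. Of the 56 windows of imprinted genes, 8 (14.3%) held the hexamer on either strand, against 8.68% of all windows. Among the 8 were overlapping windows of Mest. The hexamer itself holds a CG, and the windows of imprinted genes held more CG than all windows. These shares were not adjusted for that. A match is a stretch of letters and not a measured site. The last sequence is the Snurf transcript Snurf-201, chr7:59995449-60005049 on the minus strand, with its start and stop codon in capitals, which is shown because its 216 bases lie whole inside the main Snrpn transcript.
Snurf-201: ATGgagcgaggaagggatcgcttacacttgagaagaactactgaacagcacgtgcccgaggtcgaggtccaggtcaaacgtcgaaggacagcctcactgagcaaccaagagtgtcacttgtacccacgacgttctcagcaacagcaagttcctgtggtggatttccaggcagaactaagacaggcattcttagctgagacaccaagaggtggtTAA

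Imprinted genes held 1.10% of gene TPM in pup 1 and 0.667% in pup 3 (0.883 ± 0.304%, SD, n = 2), or 412071 and 210439 reads. Of the 41 genes, 23 reached 1 TPM, the level at which a gene is called found here, in both pups, where 13.5% of all genes and 24.8% of protein-coding genes were. In pup 1, 29 were found (23.3% of all genes), and in pup 3, 24 were (16.1%). Pup 1 was the sole library with 1 TPM or more for 6 of them, against 9.82% of all genes, pup 3 for 1, against 2.58%, and 11 were under 1 TPM in both. The list was drawn up by name, with results of these libraries known.

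The levels fell away steeply. Ndn, Nnat, Snrpn, Snurf and Inpp5f, the 5 genes at a mean of 500 TPM or more, made up 78.6% of the set's TPM in pup 1 and 73.4% in pup 3. A mean of 100 TPM or more was reached by 10 genes, of 50 or more by 13 and of 10 or more by 25. The median of the mean levels over the 41 genes was 18.4 TPM, against 0.045 TPM for protein-coding genes. The genes expressed from the paternal copy held most of the total, 7711 of the set's TPM in pup 1 and 4674 in pup 3, or 73.5 and 75.5%. Maternally expressed genes held 10.9 and 9.99%, and the 4 genes whose copy depends on the transcript held 15.6 and 14.5%, so these shares were close in the 2 libraries.

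**Figure D1:**
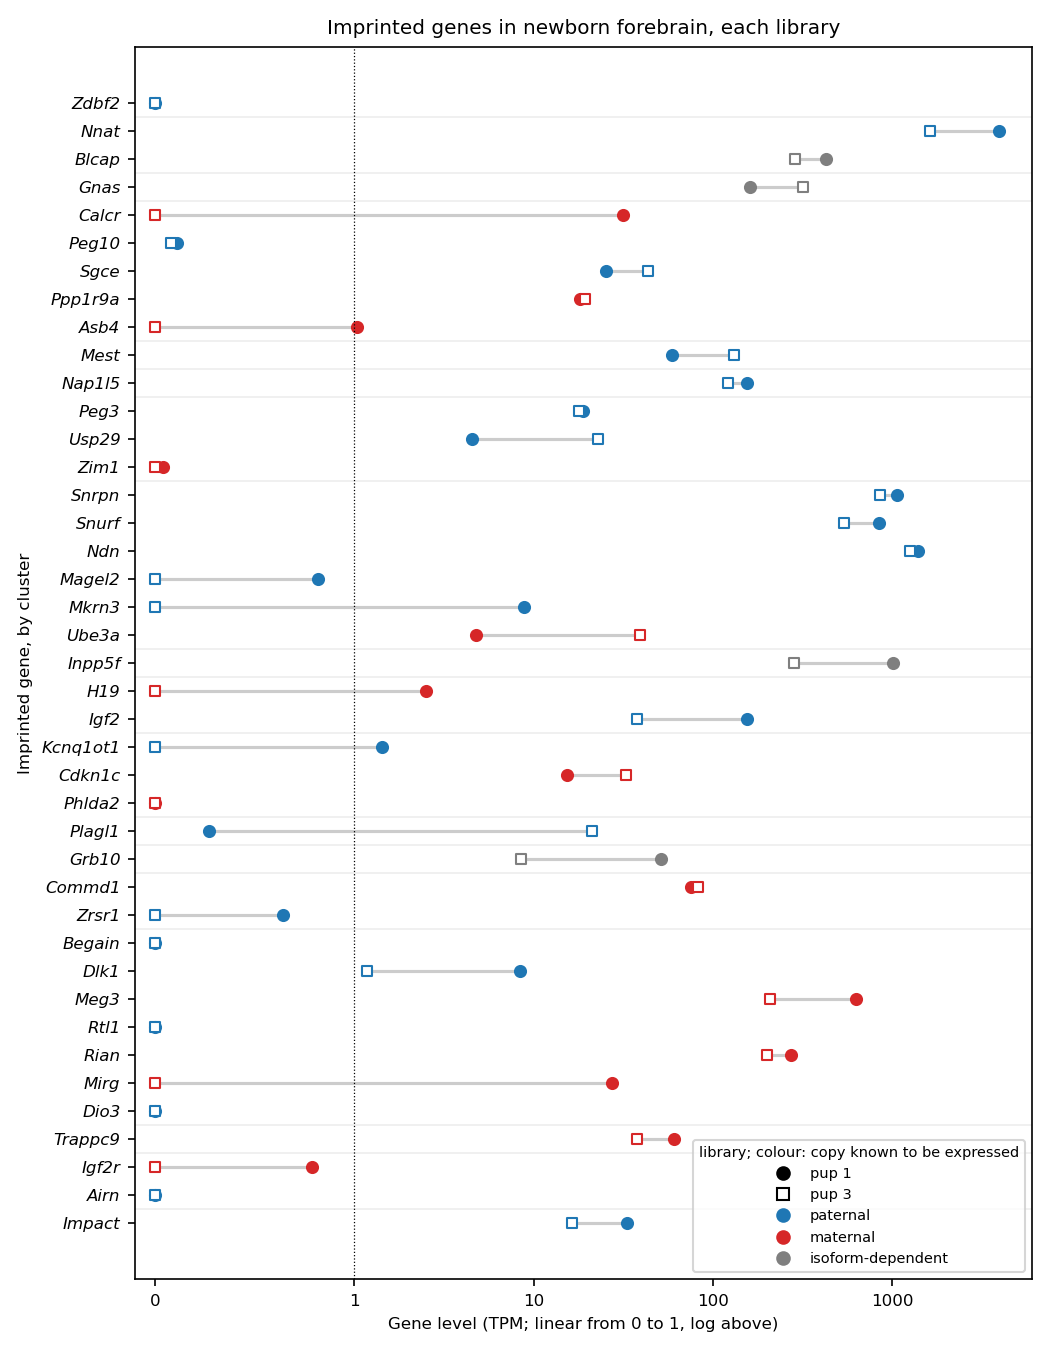
Level of each of the 41 imprinted genes in TPM (linear from 0 to 1, logarithmic above), by cluster from top to bottom, with a filled circle for pup 1, an open square for pup 3 and a line joining them; colour gives the copy known to be expressed and the dotted line marks 1 TPM. The 5 highest genes lie at 282 TPM or more in both pups, while 15 genes sit at 0 reads in pup 3.

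The depth was 41082811 reads in pup 1 and 29881397 in pup 3. Mitochondrially encoded genes took 5.02 and 6.003% of TPM, and spike-ins 4.46 and 7.30%. Of 9 forebrain markers, 5 were found in both libraries and 2 in that of pup 1, while Emx2 and Dlx2 were at 0 reads in both (summed level 464 and 517 TPM). All 5 neuron markers were found in both (10963 and 5380 TPM). Each was higher in pup 1 on TPM, but Stmn2 was close, at 1786 and 1738 TPM. None of 5 hindbrain genes was found. Markers of other cells summed to 269 and 64.4 TPM for microglia (1 of 5 found in both, the other 4 in pup 1), and 75.0 and 169 TPM for endothelium and pericytes (3 of 7 found in both, Kdr at 0). Reads carry no molecular identifier, so floors from read numbers cover counting error only.

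The most abundant imprinted gene was Nnat (neuronatin, a small membrane protein of developing neurons; chr2:157560078-157562522), at 3948 TPM in pup 1 against 1624 TPM in pup 3, 2786 ± 1643 TPM (SD, n = 2). It ranked 29 among all genes by mean level and was 2.43-fold higher in pup 1. Without it the set held 0.685 and 0.492% of gene TPM, so the gap between the pups narrowed but kept its direction. Nearly all of Nnat, 99.98 and 99.96%, came from transcripts of 1 start. Nnat-205 led with 58.5 and 65.5% of the gene, and Nnat-202 held 34.6 and 23.2%. Nnat sits inside Blcap on the other strand. Blcap (an apoptosis-related gene named for bladder cancer; chr2:157556362-157571274) stood at 424 and 287 TPM (355 ± 96.9), with 93.5 and 90.1% in Blcap-202.

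On chromosome 7, the Snrpn to Ube3a cluster held 31.5% of the set's TPM in pup 1 and 43.3% in pup 3. Ndn (necdin, a growth-suppressing protein of neurons; chr7:62346569-62350262) was at 1394 and 1246 TPM. At 1320 ± 105 TPM it had the smallest SD of the 5 genes at 500 TPM or more, it ranked 84 among all genes, and on FPKM it was the higher in pup 3. Snrpn (a spliceosome protein of brain; chr7:59982495-60140219) was at 1060 and 854 TPM, 957 ± 146. Snurf, the short upstream reading frame on the same message, was at 839 and 538 TPM, 688 ± 213. These values rest on very unequal numbers of reads, 51822 and 36291 for Snrpn but 2604 and 1458 for Snurf. The whole Snurf transcript forms bases 63 to 278 of the 1932 bases of Snrpn-201, so the split of reads between these genes was made by the counting and is uncertain. A further annotated gene on the same strand, Gm38393, also contains all of Snurf.

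The other genes of the cluster were low or seen in 1 pup. Ube3a (a ubiquitin ligase expressed from the maternal copy in neurons; chr7:59228750-59311536) went the other way from most, at 4.79 TPM from 635 reads in pup 1 and 39.3 TPM from 4549 reads in pup 3, an 8.20-fold difference. Its antisense RNA Snhg14, looked up after these values were seen, was at 61.5 TPM (2410 reads) in pup 1 with 0 reads in pup 3. Snhg14 exons overlap 8.74% of the Ube3a exon bases in the later annotation used for names. The deposited tables list 1 Ube3a transcript, Ube3a-201, which ends at 59306727. By that annotation Snhg14 spans 59307924 to 59975759, so it shares no base with Ube3a-201. The strand setting of the counting is not given in the sources used here.

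Mkrn3 (a zinc finger protein that restrains puberty) was at 8.84 TPM (574 reads) and Magel2 (a regulator of ubiquitin ligases active in hypothalamus) at 0.82 TPM (99 reads) in pup 1, both with 0 reads in pup 3. Such bounds are set against the larger of 3 reads and the deposited upper credibility bound in pup 3, whose level is not stated. By this Mkrn3 was at least 167-fold and Magel2 at least 28.9-fold higher in pup 1. A lack of reads of this kind was common: of all genes at 1 to 10 TPM in pup 1, 50.6% had 0 reads in pup 3, and so had 3 of 7 imprinted genes. In the same interval between Snrpn and Ube3a, 210 entries for small nucleolar RNAs, which brain is known to make in quantity from this domain, had 0 reads. Each has an effective length of 0 in the tables and the RNA was longer than 200 nt, so the 0 reads say nothing of those RNAs.

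**Figure D2:**
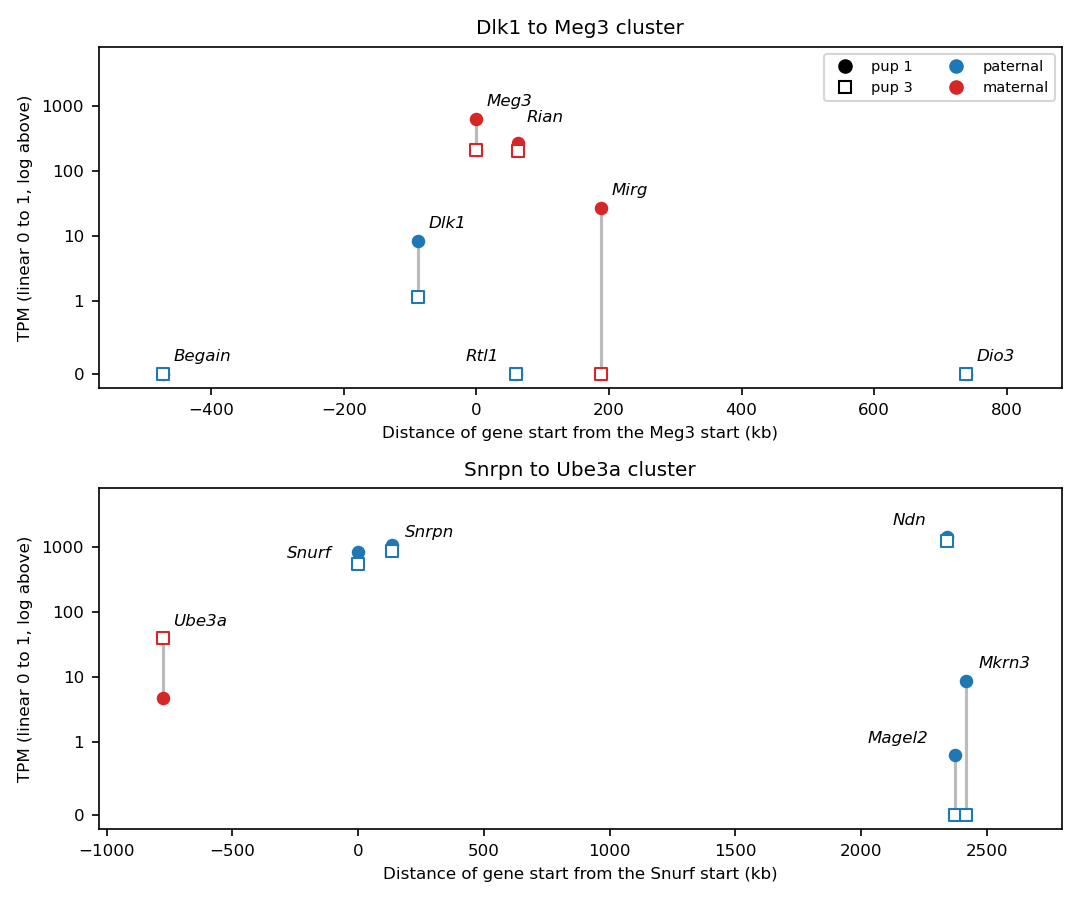
Gene levels along 2 clusters, with distance of the gene start from the Meg3 start (upper plot) or the Snurf start (lower plot) in kilobases against TPM (linear from 0 to 1, logarithmic above); filled circles are pup 1, open squares pup 3, red the maternally and blue the paternally expressed genes. In the upper plot Meg3 and Rian lie at 199 TPM or more in both pups while Begain, Rtl1 and Dio3 are at 0, and in the lower plot Ube3a alone is higher in pup 3.

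In the Dlk1 to Meg3 cluster on chromosome 12 the non-coding RNAs Meg3 and Rian, made from the maternal copy, were abundant in both pups and the paternally expressed coding genes were scarce. Meg3 (a long non-coding RNA; chr12:109541001-109571726) was at 630.2 and 208 TPM, 419 ± 299, or 3.04-fold higher in pup 1. Rian (host of small nucleolar RNAs; chr12:109603940-109661716) was at 271 and 199 TPM, 235 ± 50.8. Its main transcripts were Rian-213, with 34.4 and 46.6% of the gene, Rian-202, with 33.2 and 12.9%, Rian-208, with 5.23 and 27.4%, and Rian-211, with 14.3% in pup 1 and 0 in pup 3. Mirg (host of microRNAs; chr12:109729764-109749460) was at 27.3 TPM from 660 reads in pup 1 with 0 reads in pup 3, at least 25.3-fold higher in pup 1. Levels of the 3 RNAs fell in the order Meg3, Rian, Mirg in both pups, which is also their order along the chromosome. Meg3 and Rian differed in pup 1 by more than they did in pup 3, where their values of 208 and 199 TPM were close.

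Dlk1 (a membrane-bound inhibitor related to Notch ligands) was at 8.41 TPM in pup 1 against 1.18 TPM in pup 3, from 107 and 44 reads. In pup 1 most of this, 7.66 TPM, was the short transcript Dlk1-209 that begins 7.02 kb inside the gene, while in pup 3 it was Dlk1-205. Begain (a postsynaptic protein gene), Rtl1 (a retrotransposon-derived gene) and Dio3 (which inactivates thyroid hormone) had 0 reads in both pups. For the 6 genes with 0 reads in both, these 3 with Zdbf2 (a zinc finger gene), Phlda2 and Airn, 3 reads would be 0.0135 TPM (Zdbf2, pup 1) to 0.197 TPM (Phlda2, pup 3). The deposited upper credibility bounds of these genes allow more, from 0.0176 TPM for Rtl1 in pup 1 to 0.882 TPM for Airn in pup 3. Of 59 microRNA entries in the domain, 1 had reads, 6 in pup 1, but 49 have an effective length of 0 and the RNA was longer than 200 nt, so this says nothing of the microRNAs.

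Inpp5f (an inositol phosphatase; chr7:128611328-128696425) was the most abundant of the genes whose copy depends on the transcript, at 1004 and 282 TPM, 643 ± 511, or 3.56-fold higher in pup 1. A paternally expressed brain transcript is known to begin inside this gene. The transcript Inpp5f-208, which starts 76.2 kb past the first annotated start, carried 896 TPM (89.3%) in pup 1 and 268 TPM (95.1%) in pup 3. Inpp5f-203, which starts at 77.2 kb, carried a further 7.05 and 4.86%. The full-length transcripts from the first start held 2.15% in pup 1 and 0 in pup 3. Nearly all of the gene's signal in both libraries was thus assigned to the internal starts.

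Gnas (chr2:174284320-174346744), which encodes the stimulatory G protein alpha subunit and, from other starts, proteins with their own first exons, was at 160 TPM in pup 1 against 318 TPM in pup 3, 239 ± 112. The start group of the G protein transcripts, 45.7 kb from the first, held 91.0 and 77.1% of the gene, led by Gnas-208 at 99.4 and 210.2 TPM, with Gnas-206 at 28.7 and 11.0% of the gene. The outermost start, from which the maternally expressed Nesp transcripts come, differed: Gnas-211 was at 0.05 TPM (3.03 reads) in pup 1 and 70.4 TPM (3860 reads) in pup 3. A start group 43.2 kb from the first held 8.96% in pup 1 and 0 in pup 3. Transcripts from the start 13.5 kb from the first, where those of the large XL form begin, had 0 reads in both. Exons of Nespas and Gm20721 overlap Gnas on the opposite strand, over 8.83 and 13.1% of its exon bases. Gm20721, looked up after these values were seen, was itself at 3.77 and 74.96 TPM.

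Grb10 (an adaptor that damps insulin and IGF signalling; chr11:11930508-12038683) was at 51.3 TPM from 5927 reads in pup 1 and 8.54 TPM from 921 reads in pup 3, 6.01-fold apart. It is known to be expressed from the maternal copy in most tissues and from the paternal copy, by other promoters, in neurons. In pup 1, 44.5 TPM (86.8%) came from Grb10-201, whose start follows the window with 40 CG dinucleotides printed above, and 12.6% from Grb10-207. In pup 3, all 8.54 TPM came from Grb10-203, whose start at 10.7 kb from the first annotated start lies downstream of that of Grb10-201 at 1.28 kb. Neither leading transcript had a read in the other pup. Which parental copy they came from was not measured.

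**Figure D3:**
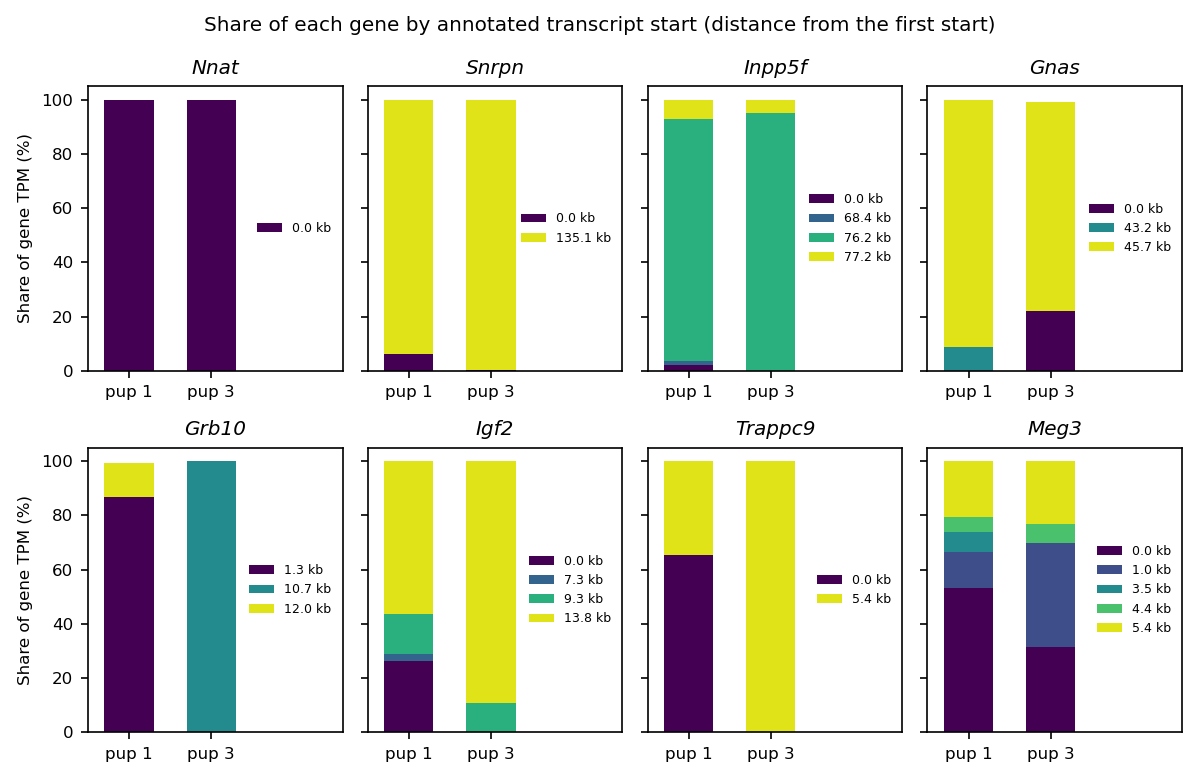
Share of each gene's TPM by annotated transcript start, in percent, for 8 imprinted genes, with 1 bar for pup 1 and 1 for pup 3; colours are start groups (transcripts beginning within 500 bases of each other) by distance from the gene's first start in kilobases, and groups at or near 0 are left out. Nnat, Snrpn and Inpp5f keep the same main start group in both pups, whereas the colours of Grb10 do not overlap and those of Trappc9 and Meg3 shift.

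Igf2 (a growth factor; chr7:142650766-142666816) was at 155 TPM in pup 1 against 37.8 TPM in pup 3, 96.6 ± 83.0, or 4.10-fold higher in pup 1. Igf2-208, a transcript with no annotated reading frame that starts 13.8 kb past the first start, held 56.4 and 89.0%. Igf2-203 held 26.2% in pup 1 with 0 in pup 3, and Igf2-202 held 13.8 and 2.54%. H19 (the maternally expressed non-coding RNA next to Igf2) was at 2.52 TPM from 56 reads in pup 1 with 0 reads in pup 3, at least 4.47-fold higher. In brain, Igf2 is known mainly from choroid plexus and meninges. Of 8 meningeal and fibroblast markers, 4 were found in both, 2 only with pup 1, 1 only with pup 3, and Lum was at 0 reads in both (summed level 1920 and 1953 TPM, mostly Ptgds). Of 7 choroid plexus markers, 2 were found in both, 2 in pup 1 alone, and Kl, Clic6 and Otx2 were at 0 reads in both (1865 and 2003 TPM, mostly Ttr). Neither sum was higher in pup 1, as Igf2 was. Single markers lay both ways. Higher in pup 1 were Col3a1 at 76.9 and 31.4 TPM, Folr1 at 85.3 and 0 TPM and Slc6a13 at 42.55 and 0.02 TPM. So were Foxj1 at 11.75 and 0 TPM, Col1a1 at 5.62 and 0 TPM and Col1a2 at 11.2 and 10.5 TPM. Higher in pup 3, besides Ptgds and Ttr, were Dcn at 33.4 and 69.0 TPM, Foxc1 at 0 and 1.25 TPM and Enpp2 at 44.5 and 106 TPM. The part of these cells in the Igf2 values was not tested. Fewer cells of a type and less RNA per cell cannot be told apart in such tissue RNA.

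Further along chromosome 7, Cdkn1c (an inhibitor of the cell cycle) was at 15.3 TPM in pup 1 against 32.6 TPM in pup 3. All of it was Cdkn1c-202 in pup 1 and 89.0% was Cdkn1c-201 in pup 3, although these transcripts share a start group. Kcnq1ot1 (the long paternal RNA that silences its neighbours) had 3173 reads in pup 1, which its great length turns into 1.42 TPM, and 1 read in pup 3. It lies inside Kcnq1 on the other strand, and Kcnq1 itself had 1 read in pup 1 and 0 in pup 3. Phlda2 (a gene known for limiting placental growth) had 0 reads in both.

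On proximal chromosome 6, Sgce (epsilon-sarcoglycan; chr6:4674350-4747207) was at 25.4 and 43.4 TPM, with 77.2 and 100% in Sgce-205 and 21.7 and 0% in Sgce-202. Its head-to-head partner Peg10 (a retrotransposon-derived gene of placenta) had 9 reads in each pup, 0.11 and 0.08 TPM. Ppp1r9a (neurabin, an actin-binding protein of synapses) was at 18.2 and 19.3 TPM, 18.7 ± 0.813. Its reads differed more, 3713 against 1168, and on CPM (counts scaled to the library total) it was higher in pup 1. Calcr (the calcitonin receptor; chr6:3685680-3764714) was at 31.5 TPM from 2820 reads in pup 1 with 0 reads in pup 3, at least 187-fold higher in pup 1. Asb4 (a ubiquitin ligase subunit) was at 1.04 TPM in pup 1, against 0 reads in pup 3, at least 7.58-fold.

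Calcr and Asb4 are known from hypothalamus, and 8 hypothalamic markers were looked at beside them. Nkx2-1 at 6.01 TPM and Pomc at 23.95 TPM were found in pup 1 alone, Avp at 44.4 TPM in pup 3 alone, and Oxt, Agrp, Hcrt, Pmch and Sim1 were at 0 reads in both. The list summed to 29.96 and 44.4 TPM, and its part in the result was not tested. Of all genes at 20 to 50 TPM in pup 1, 35.1% had 0 reads in pup 3. Of the imprinted genes in that range, 2 of 4, Calcr and Mirg, had 0 reads.

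Mest (an enzyme of the hydrolase family; chr6:30723547-30748465) was at 58.9 TPM in pup 1 against 131 TPM in pup 3, 94.9 ± 51.0. Of the level in pup 3, 77.3 TPM belonged to a transcript of 836 bases that is in the deposited tables but absent from the later annotation used for names. Without it Mest was at 58.9 and 53.7 TPM, so the difference in TPM between the pups rested on that transcript. This leaves its reads out and does not reassign them to other transcripts. In all Mest had 3837 and 4266 reads. The log2 ratio of pup 3 over pup 1 was 0.40 on CPM with TMM factors, against 1.14 on TPM. The other transcripts began mostly at the start whose window is printed above, through Mest-211 at 58.9 and 51.5 TPM. Copg2 overlaps 23.1% of the Mest exon bases on the other strand, and was at 14.9 and 1.25 TPM. Nap1l5 (a nucleosome assembly protein; chr6:58905233-58907076) was at 154 and 121 TPM, 137 ± 23.7, in its 1 transcript. Its host gene Herc3 was at 23.0 TPM in pup 1, against 0 reads in pup 3.

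In the Peg3 cluster, Peg3 (a zinc finger protein linked to maternal behaviour; chr7:6703892-6730431) was at 18.9 and 17.9 TPM, 18.4 ± 0.757, with 1 leading transcript in both. Usp29 (a deubiquitinase transcribed from the same promoter region in the other direction) was at 4.56 TPM in pup 1 against 22.8 TPM in pup 3, 4.99-fold apart. Its 1 listed transcript, Usp29-201, starts at 6961160, far from the Peg3 start at 6730431. No Usp29 reads were thus assigned to a transcript that begins at the shared region. Zim1 (a zinc finger gene) had 4 reads in pup 1 and 0 in pup 3. Plagl1 (a zinc finger growth suppressor; chr10:13060504-13131694) was the sole member found in pup 3 alone, at 0.27 TPM from 29 reads in pup 1 and 21.3 TPM from 2543 reads in pup 3, 78.7-fold apart. Both the call and the fold depend on the unit: by the deposited posterior mean Plagl1 was at 2.6 and 23.5 TPM, and so was found in both. Among genes at 20 to 50 TPM in pup 3, 3 of 7 imprinted genes and 33.6% of all genes were under 10 TPM in pup 1.

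The remaining members were of middle or low level. Commd1 (a copper and NF-kappaB regulator; chr11:22896136-22982382) was at 75.6 and 82.1 TPM, 78.8 ± 4.62, one of the closest pairs of values in the set. A transcript with a retained intron, Commd1-205, held 29.6 and 22.7% of it. Zrsr1, a splicing-related gene inside Commd1 on the other strand, had 54 reads in pup 1 and 0 in pup 3. Trappc9 (a subunit of a vesicle tethering complex; chr15:72589620-73061204) was at 60.9 and 37.8 TPM, 49.3 ± 16.4. Its first start group, through Trappc9-202, held 65.4% in pup 1 and 0 in pup 3, where Trappc9-201, 5.39 kb downstream, held all. Impact (a regulator of translation) was at 33.0 and 16.4 TPM, and like Ndn, Nap1l5 and Ube3a it has only 1 listed transcript. Igf2r (the receptor that clears IGF2) had 184 reads, 0.79 TPM, in pup 1 and 0 in pup 3. The deposited credibility bounds of Igf2r overlapped, at 0.786 to 2.00 TPM in pup 1 and 0.0451 to 1.39 TPM in pup 3. No least fold can be given for it. Its antisense RNA Airn had 0 reads in both.

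Among the 25 imprinted genes at a mean of 10 TPM or more, 16 were higher in pup 1 and 9 in pup 3, where 54.8% of all 7479 such genes were higher in pup 1. At least 2-fold higher in pup 1 were 7 of the 25, Nnat, Calcr, Inpp5f, Igf2, Grb10, Meg3 and Mirg, and 37.8% of all genes. At least 2-fold higher in pup 3 were 5, Mest, Usp29, Ube3a, Cdkn1c and Plagl1, and 25.7% of all genes. These folds are on the log2(TPM + 1) scale, which understates the change of low genes. On CPM with TMM factors Mest fell under 2-fold, while Gnas passed it in pup 3 and Ppp1r9a in pup 1. The log2 ratio of pup 3 over pup 1 had a median of -0.35 over the imprinted genes (SD 2.02, n = 25) and -0.23 over all genes (SD 3.15), and both groups thus leaned to pup 1. All 13 imprinted genes at a mean of 50 TPM or more were found in both pups, as were 95.6% of all genes at that level, and 5 of the 13 were 2-fold or more apart, against 42.4%. A gene missing from 1 library passes this filter only if it is high in the other, so presence in both was largely set by the filter.

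The deposited credibility bounds, which cover the assignment and counting of reads but not the loss of molecules, lay apart between the pups for 23 of the 25 genes and for 93.3% of all genes at that level. Of these 25, only Ppp1r9a and Commd1 had bounds that overlapped. Across the 41 genes the levels of the 2 libraries, as log2(TPM + 1), had a Pearson's r of 0.893 and a Spearman's rho of 0.857. These describe genes spread over a wide range of levels within 2 libraries, and genes are not replicates.

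**Figure D4:**
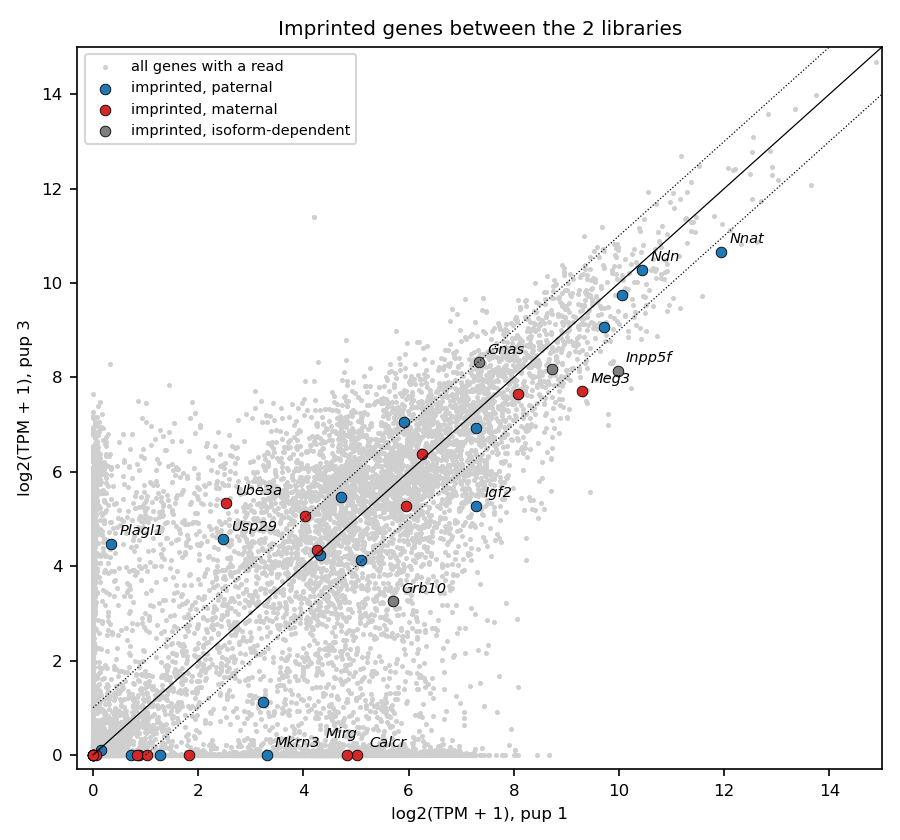
Level of each gene in pup 1 (horizontal) and pup 3 (vertical) as log2(TPM + 1), with grey points for all genes with a read and coloured points for the 41 imprinted genes by the copy known to be expressed; the solid line marks equal levels and the dotted lines 2-fold differences. Imprinted genes lie within the grey cloud, Nnat, Ndn and Inpp5f at its upper end and Calcr and Mirg on the line of 0 reads in pup 3.

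Of 17 imprinted genes found in both pups with more than 1 listed transcript, 9 had the same leading transcript in both, against 63.9% of 4143 genes of that kind. These were Nnat, Blcap, Snrpn, Inpp5f, Gnas, Igf2, Peg3, Sgce and Rian. The other 8 were Grb10, Meg3, Trappc9, Mest, Cdkn1c, Commd1, Dlk1 and Ppp1r9a. For Meg3 the lead passed from Meg3-205, 276 TPM in pup 1 against 28.1 TPM in pup 3, to Meg3-203, 84.7 and 79.9 TPM. Meg3-211 held 16.0 and 23.1% of the gene, and Meg3-207 3.71 and 17.8%. The long transcript Meg3-209 took the most reads of the gene in both pups, 12961 and 4929, but 5.36 and 7.09% of its TPM. By reads Meg3 thus had the same leading transcript in both. Leads that pass between transcripts of nearly equal level say little, as for Commd1-203 and Commd1-202, at 28.1 and 25.0 TPM in pup 1 and 31.3 and 31.4 TPM in pup 3.

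Genes that keep imprints were present in part. Of 12 listed, 5 were found in both (13.5% of all genes) and 4 in pup 1 alone (9.82% of all genes). The other 3 (Dnmt3b, Zfp42 and Dppa3) had 0 reads in both. Zfp57, the zinc finger protein that recognises methylated imprinted sites, was at 97.3 and 109 TPM. The maintenance methyltransferase gene Dnmt1 was at 30.4 and 27.0 TPM, and Dnmt3a, a de novo methyltransferase gene, at 34.8 and 8.87 TPM. Smchd1, a chromatin protein, was at 4.71 and 71.7 TPM. Zfp445, Trim28 and Setdb1, which form or recruit the silencing complex, were at 74.4, 51.4 and 46.9 TPM in pup 1, against 0 reads in pup 3. Of all genes at 20 to 50 TPM in pup 1, the range of Setdb1, 35.1% had 0 reads in pup 3.

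Of 29 genes for binding partners and pathway members of the imprinted products, 12 were found in both, 10 only with pup 1, 3 only with pup 3, and 4 were under 1 TPM in both. Of all genes, 13.5% were found in both, 9.82% in pup 1 alone and 2.58% in pup 3 alone. The G protein subunit genes Gnb1, at 1976 and 745 TPM, and Gnao1, at 176 and 144 TPM, stood beside Gnas. Cdk4, a cyclin-dependent kinase, was at 494 and 1273 TPM. Of the listed receptors and adaptors of insulin and IGF signalling, Igf1r was at 5.18 and 22.4 TPM, Insr at 5.67 and 0 TPM and Irs1 at 11.7 and 2.45 TPM, and Irs2 had 0 reads in both. Of the 3 proteins that pair with the calcitonin receptor, Ramp2 was at 33.4 and 0.13 TPM, the same order as Calcr, whereas Ramp1 was at 12.2 and 77.2 TPM and Ramp3 was at 0 reads in pup 1 and 55.6 TPM in pup 3. The thyroid hormone receptor gene Thra was at 93.4 and 212 TPM while Dio3 had 0 reads.

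A further list of 43 genes reported as imprinted in some tissue had 39 in the tables, 18 of them under 1 TPM in both. Of the 39, 10 were found in both (13.5% of all genes), 9 only with pup 1 (9.82%) and 2 only with pup 3 (2.58%). The highest were Cd81, a tetraspanin gene, at 647 and 610 TPM, the nucleosome assembly gene Nap1l4 at 316 and 88.4 TPM, and the survival gene Bcl2l1 at 218 and 151 TPM. Of its 14 genes at a mean of 10 TPM or more, 12 were higher in pup 1, against 54.8% of all genes at that level. Mcts2 and Rasgrf1 were higher in pup 3. The log2 ratio had a median of -1.61, against -0.23 over all genes. That median leans on genes that passed the filter through pup 1 alone. Casd1, Dlx5, Qpct and Pon3 were at 84.8, 52.65, 44.1 and 28.9 TPM in pup 1 with 0 reads in pup 3, and Osbpl5 was at 45.3 and 0.26 TPM.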

How the data were processed

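RNA of 2 newborn forebrains, 1 library per pup, was measured. The authors deposited expected counts per gene and per transcript, in which a read that maps to several features is divided among them, per the file headers (the column names match those of RSEM). The deposited TPM sums to 1000000 with spike-ins and mitochondrial genes counted in. The deposited FPKM is scaled, per the file headers, to effective length and to the total of reads. The deposited credibility bounds of TPM, a signal that is never negative, have no stated level. Text deposited with the libraries names mm10 and annotation M4. Which aligner and counter, with which versions and strand setting, is not given in the sources used here.

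Symbols, positions and transcript names came from GENCODE M21, the same assembly, by identifier (42462 of 43346 genes matched; 5 of the 246 transcripts did not). Genes at 1 TPM or higher count as found. Ratios used a pseudocount of 1 TPM and genes at a mean of 10 TPM or more. Bounds on folds set 0 reads to 3 reads, converted with the effective length, or to the deposited upper credibility bound where that was higher, a choice made after seeing the data. Positions of starts within 500 bases were grouped. Promoter windows that overlap an annotated exon were not printed, and CG dinucleotides and hexamers were counted by exact match. No test was made. The members, the copy each is known to be expressed from, and all lists were chosen with earlier results of these data known; grouping by start and the host and antisense genes were added after values were seen.

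All members are named; those at a mean of 50 TPM or more, or found in 1 pup alone, are given in depth, with the transcripts that hold 10% or more of a gene at a mean of 20 TPM or more, and the highest 3 of each list or those beside a member's result. CPM used TMM factors from edgeR 4.0.16 (0.919 and 1.09) or DESeq2 1.42.0 size factors (1.09 and 0.914) on expected counts rounded to whole numbers, over 11993 genes with 10 or more reads in total, as alternatives. The ratio step was tested on simulated data with known answers. The simulation held counting error alone, so it checks the calculation and not the effect of molecule loss at this input. Other software was R 4.3.3, pandas 2.3.3 under Python 3.11.15, scipy 1.17.1 with numpy 2.4.6, and matplotlib 3.10.9.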

Additional observations from a re-analysis of the deposited data

How the results depend on the processing

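The number of imprinted genes found in both pups was 20 to 24 under the other thresholds and units and without the genes that share transcripts or overlap others; counted in 1 library alone it was 24 (pup 3) and 29 (pup 1). The number found in pup 1 was 24 to 34 and in pup 3 23 to 24. Their share of gene TPM was 0.588% without Nnat and up to 0.936% with spike-ins and mitochondrial genes left out, and 0.667 to 1.10% in a single library. The median log2 ratio stayed below 0, from -0.64 with every gene with a read in either pup to -0.09 on FPKM. FPKM moved the median of all genes from -0.23 to 0.03. On CPM with TMM factors the medians were -0.58 for the set and -0.26 for all genes, and with DESeq2 factors -0.57 and -0.25, so the set lay farther below all genes on CPM than on TPM or FPKM. With FPKM 14 of 25 genes were higher in pup 1, Peg3 and Ndn changing direction, and on CPM Ppp1r9a and Peg3 did. The leading transcript was the same for 9 to 11 genes. Mean levels moved by more than their SD for 9 of 41 genes on FPKM, 9 on posterior mean TPM and 4 after rescaling. The 9 on posterior mean TPM include the 6 genes with 0 reads in both pups, whose SD is 0. FPKM and rescaling multiply all these genes by 1 factor per library, so a gene moves there only where its values lie close. Also, 1 library alone cannot move by more than the SD when n = 2. These counts are thus no measure of how firm the levels are. No paired analysis was possible because there is only 1 group. Genes under about 50 TPM were often missing from 1 library. Some genes above that in pup 1 also had 0 reads in pup 3, such as Zfp445 at 74.4 TPM and Folr1 at 85.3 TPM. Absence from 1 library at such levels cannot be told apart from loss at this input.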
